A study of Homo sapiens with 3 samples.

Results

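The binding of the transcription factor MYC was described at the start sites of 8 nuclear genes that build and run mitochondria: TFAM, TFB1M, TFB2M, POLRMT, POLG, NRF1, PPRC1 and C1QBP. A listed MYC region was taken for a gene when its summit, the position of highest signal, lay within 5 kb of the start site given for that gene in the hg19 genome build. Under this rule 9 of the 31378 regions listed for untreated cells and 8 of the 27614 regions listed after MST-312 were found. The rule uses gene positions and no measured value. The series profiled P493, a line of human B cells with a MYC gene that can be switched off. By chromatin immunoprecipitation and single-read sequencing (ChIP-seq), the series asked where MYC sits on the genome with and without MST-312, a small-molecule telomerase inhibitor. It holds 3 libraries: MYC ChIP from P493 cells with no treatment, MYC ChIP from P493 cells given MST-312, and input DNA from P493 cells with no treatment. Both ChIP libraries used the N262 antibody to MYC. The sources used here give neither the dose and duration of MST-312 nor whether the repressible MYC gene was switched off at any time. Because each condition is 1 library, no comparison below has a replicate check, and no test of treatment was run.

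Mitochondria keep a small genome of their own, but the proteins that copy, transcribe and translate it are encoded in the nucleus. The mitochondrial RNA polymerase starts transcription together with TFAM and TFB2M, and nuclear regulators such as NRF1 switch on the genes for this machinery. MYC is known to promote the expression of many nuclear genes for mitochondrial proteins in growing cells, and it binds DNA with its partner MAX, preferring the E-box sequence CACGTG.

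The ChIP libraries differed in depth and complexity. The untreated library kept 60805153 of 80489246 tags (75.5%, redundant rate 0.24) and the MST-312 library 55400354 of 108838301 (50.9%, redundant rate 0.49). Summit pileup, the number of 200 bp fragments over the summit, is therefore also given per 1000000 kept tags. Ratios of pileup are MST-312 over untreated on that scale, with exact Clopper-Pearson 95% intervals that cover counting error only; without molecular identifiers, tags are not independent molecules. Lower complexity of the MST-312 library, a less efficient precipitation and less MYC on DNA cannot be told apart with 1 library per condition.

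The promoter sequences show what DNA lies just upstream of these genes. For 7 of the 8 genes the 250 bases before the RefSeq start (build GRCh38.p14) were searched on both strands. The canonical E-box CACGTG and the variants CACGCG and CATGTG were found in 0 of 7. Over the 35116 promoters in the table the shares were 6.34%, 9.72% and 9.42%, so 0 of 7 does not set these genes apart. The palindromic NRF1 core of 10 bases, printed in capitals in the TFB1M sequence, was found in 2 of 7, POLRMT and TFB1M, against 1.03% of all promoters. A shorter core of 8 bases, GCATGCGC, which lies within the longer one and was chosen after the sequences had been seen, was found in 3 of 7 (also TFB2M), against 2.63%. These 3 promoters are shown because they hold the core of a factor that is itself among the 8 genes. C1QBP is shown because its MYC region was among the strongest while none of the motifs searched was found in this window. None was found for PPRC1, TFAM and POLG either, and PPRC1 had the highest pileup of the 8 genes. Capitals mark the motif matches, and each sequence ends at the base before the RefSeq start.
POLRMT, chr19:633538-633787, reverse strand: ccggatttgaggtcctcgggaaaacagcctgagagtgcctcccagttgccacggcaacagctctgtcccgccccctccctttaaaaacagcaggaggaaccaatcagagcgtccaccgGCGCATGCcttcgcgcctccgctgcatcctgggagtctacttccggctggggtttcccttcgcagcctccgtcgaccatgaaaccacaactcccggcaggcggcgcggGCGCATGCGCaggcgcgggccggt
TFB1M, chr6:155314485-155314734, reverse strand: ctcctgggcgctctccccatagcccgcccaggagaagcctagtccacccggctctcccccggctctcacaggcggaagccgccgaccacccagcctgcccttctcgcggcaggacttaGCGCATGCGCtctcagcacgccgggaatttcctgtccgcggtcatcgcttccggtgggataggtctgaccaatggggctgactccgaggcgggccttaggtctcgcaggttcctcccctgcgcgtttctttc
TFB2M, chr1:246566262-246566511, reverse strand: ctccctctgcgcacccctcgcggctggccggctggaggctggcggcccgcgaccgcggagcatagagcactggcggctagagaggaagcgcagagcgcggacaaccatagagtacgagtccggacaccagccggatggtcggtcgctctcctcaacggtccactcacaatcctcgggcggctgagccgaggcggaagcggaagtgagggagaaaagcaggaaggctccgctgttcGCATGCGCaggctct
C1QBP, chr17:5439156-5439405, reverse strand: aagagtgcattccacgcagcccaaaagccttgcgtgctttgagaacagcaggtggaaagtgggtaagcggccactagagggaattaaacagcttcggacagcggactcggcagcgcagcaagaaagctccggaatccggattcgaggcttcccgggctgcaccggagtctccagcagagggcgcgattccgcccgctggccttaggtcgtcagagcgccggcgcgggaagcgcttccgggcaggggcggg
In TFB2M the match lay 15 to 8 bases before the start. In TFB1M it lay 132 to 123 bases before the start. POLRMT held the longer core 24 to 15 bases and a reverse-strand copy of the shorter one 132 to 125 bases before its start. A match describes the letters and not bound NRF1. The 7 sequences were 58.4% to 69.2% G or C, against a median of 58.0% and an upper quartile of 68.0% over all promoters. They held 17 to 27 CG dinucleotides, against a median of 11 and an upper quartile of 23. Both NRF1 cores contain CG, and their share among promoters of like CG content was not computed. MYC regions are placed on hg19 and these sequences on GRCh38, so no summit was placed within them. The RefSeq start need not be the base used as the hg19 start site. On hg19, 6 of the 8 strongest untreated summits lay downstream of the start, that of C1QBP by 173 bp. Bases downstream of the start were not searched, so a missing motif here does not describe the DNA under those summits.

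All 8 genes carried a MYC region over the start site itself in both libraries. The share of all gene starts with such a region was not computed, so this count does not set the 8 genes apart. The 8 strongest untreated regions and the 8 MST-312 regions each spanned the start site, and all 8 pairs shared bases. Among all listed regions, 53.6% of the untreated ones and 63.3% of the MST-312 ones had a partner, that is, a region of the other list sharing at least 1 bp. Most of the 8 were strong, and strong regions were usually shared: among untreated regions with a −log10 q at least as high as that at TFB1M, the weakest of the 8, 91.3% had a partner. The matching share in the MST-312 list was 80.7%. Presence in both lists was thus common among regions at least this strong. The authors' lists hold only strong calls (lowest −log10 q 13.01 and 13.02), and a region absent from a list may have been a weaker call.

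The level of MYC signal differed widely among the 8 genes. In untreated cells the summit pileup went from 71 fragments at TFB1M to 510 at PPRC1, a 7.18-fold range, with a median of 266.5, and all 8 lay above the list's median of 62. After MST-312 it went from 35 to 322 fragments, a 9.2-fold range, with a median of 125.5, and 7 of 8 lay above the list's median of 50. The untreated order was PPRC1, C1QBP, NRF1, TFB2M, POLG, TFAM, POLRMT and TFB1M. The MST-312 order differed from it only in that POLG and TFB2M changed places. Within the untreated library, PPRC1 and C1QBP, NRF1 and TFB2M, and TFB2M and POLG did not differ beyond counting error. The same held in the MST-312 library for PPRC1 and C1QBP, POLG and TFB2M, TFB2M and TFAM, and TFAM and POLRMT.

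**Figure D1:**
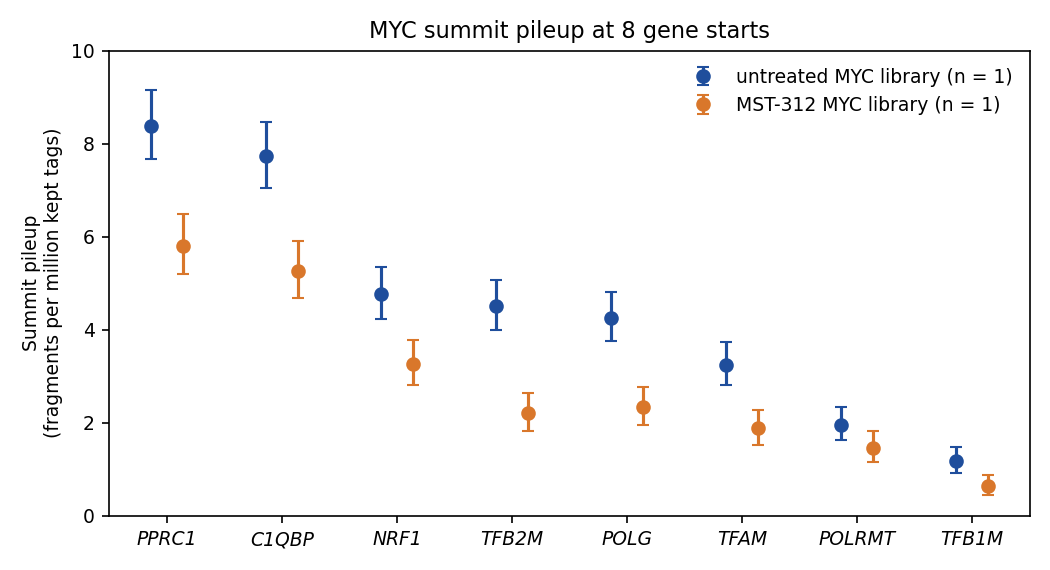
Summit pileup of the strongest MYC region at each of 8 gene starts (y axis, fragments per 1000000 kept tags) in the untreated and the MST-312 library, 1 library each; bars are exact Poisson 95% intervals for counting error only. The point for MST-312 lies below the untreated one at every gene, from 5.81 against 8.39 at PPRC1 to 0.632 against 1.17 at TFB1M.

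MYC signal was lower in the MST-312 library at all 8 genes when the strongest region of each list was compared. At POLRMT the direction turned (ratio 1.347) with the untreated region whose summit was nearest to the start. That region lies upstream of the start and shares no base with the MST-312 region. The strongest POLRMT summits lay 700 bp apart. The ratio of pileup per 1000000 kept tags went from 0.489 at TFB2M to 0.747 at POLRMT, with a median of 0.631. All 8 intervals lay below 1, that of POLRMT ending at 0.999. This direction was common: 79.0% of the 15265 pairs in which 1 untreated region met 1 MST-312 region had a lower pileup after MST-312, and their median ratio was 0.758 (quartiles 0.62 and 0.954). Among the 10726 pairs with an untreated pileup in the range of the 8 genes, 91.5% were lower, with a median ratio of 0.685 (quartiles 0.578 and 0.818). Most of these pairs were weaker than the 8 genes, with a median untreated pileup of 125 fragments. Among the 900 pairs from the median to the highest untreated pileup of the 8 genes, the median ratio was 0.638. Pairs in both sets were picked by untreated pileup, the denominator of the ratio, which by itself tends to lower their ratios. At TFAM, TFB1M, TFB2M and POLG the signal was lower by 1.5-fold or more. That is 4 of 8, against 33.6% of all such pairs, 45.7% of those in the same pileup range and 59.6% of the 900 stronger ones. The count does not set the 8 genes apart from these pairs. The point estimates of the other 4 genes did not reach 1.5-fold, and the interval lay wholly past it at 1 gene, TFB2M.

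**Figure D2:**
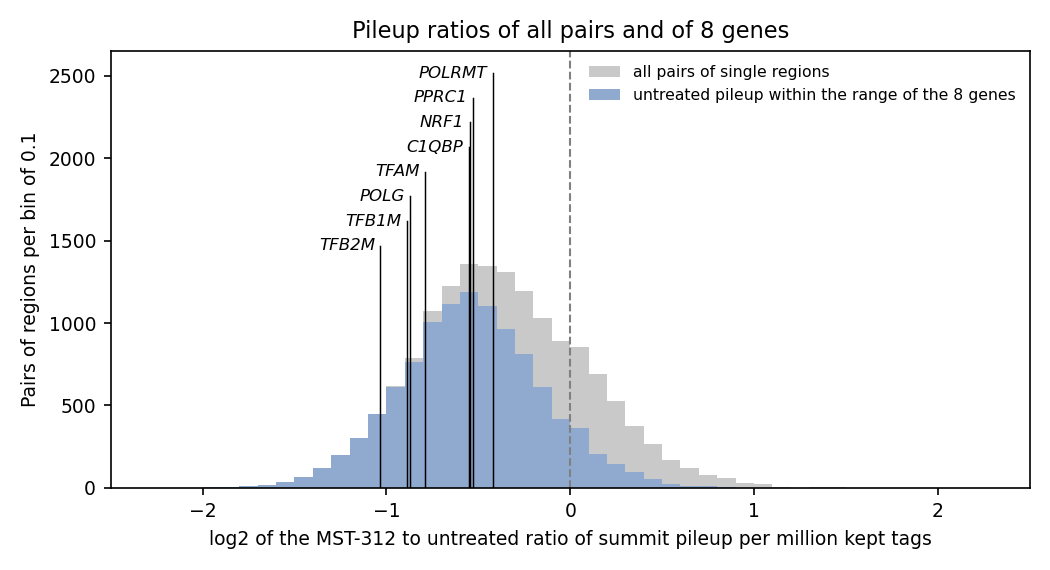
Histogram of the log2 ratio of MST-312 to untreated summit pileup per 1000000 kept tags (x axis) over all 15265 pairs of single regions (grey) and the 10726 with an untreated pileup within the range of the 8 genes (blue), with the number of pairs per bin on the y axis; black lines mark the 8 genes. All 8 lines lie left of 0, and those of TFB2M, TFB1M, POLG and TFAM lie left of the other 4.

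The nuclear regulators NRF1 and PPRC1 carried strong MYC regions. NRF1, a transcription factor that activates many nuclear genes for respiration, has its start on chromosome 7 at 129251555. Its region ran from 129250852 to 129252851 in untreated cells, with 290 fragments at the summit and a 33.4-fold enrichment over local background. It ranked 386 of the list by fold enrichment and 803 by pileup. After MST-312 it ran from 129251199 to 129252614, with 181 fragments and a fold enrichment of 15.8. There it ranked 1360 by fold enrichment and 731 by pileup. The pileup ratio was 0.685 (0.566 to 0.828), equal to the median of regions in the same pileup range. The local background at the summit, taken from the same input for both lists, was 7.71 fragments in untreated cells and 10.5 after MST-312, so that the fold enrichments stand further apart (ratio 0.47) than the pileups. The summits lay 64 bp apart, 96 and 32 bp upstream of the start.

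PPRC1, a growth-induced coactivator of respiratory gene transcription, had the highest pileup of the 8 genes in both libraries. Its start is on chromosome 10 at 103892787. The untreated region (103892173 to 103893949) had 510 fragments and a fold enrichment of 48.0, and ranked 64 by pileup among 31378 regions. The MST-312 region (103892318 to 103893750) had 322 fragments and a fold enrichment of 33.0, and ranked 72 among 27614. The ratio was 0.693 (0.601 to 0.798). Both summits lay well inside the gene, 608 and 627 bp downstream of the start and 19 bp apart, while 6 of the other 7 untreated summits lay within 323 bp of their start.

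TFAM, TFB1M and TFB2M encode factors that act on the mitochondrial genome and its transcripts. TFAM packages mitochondrial DNA and helps start its transcription. Its start lies on chromosome 10 at 60144903, within a region from 60144363 to 60145760 that had 197 fragments in untreated cells. After MST-312 the region from 60144596 to 60145835 had 104 fragments, a ratio of 0.579 (0.452 to 0.738). The fold enrichment was 20.5 and 14.7, and the summits lay 323 and 212 bp downstream of the start. TFAM was in the top 7.69% of the untreated list by pileup and the top 6.17% by fold enrichment, and in the top 13.2% and 6.07% of the MST-312 list. The lists differ in length, so these places show no change.

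TFB2M, the factor that opens mitochondrial promoters for the polymerase, had the lowest ratio of the 8 genes. Its start lies on chromosome 1 at 246729565. The untreated region (246729137 to 246730541) had 274 fragments and the MST-312 region (246729130 to 246730487) had 122, a ratio of 0.489 (0.392 to 0.607). A lower ratio was found in 6.87% of all pairs of single regions and in 9.82% of those in the pileup range of the 8 genes. The width, in contrast, was nearly the same at 1405 and 1358 bp, and the summits lay 14 bp apart, 35 and 21 bp downstream of the start. Local background was the highest of the 8 genes in both lists, at 15.4 and 13.2 fragments.

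TFB1M, a methyltransferase of mitochondrial ribosomal RNA, had the weakest region of the 8 in both libraries. Its start is on chromosome 6 at 155635627. The untreated region (155635068 to 155636366) had 71 fragments and a −log10 q of 40.4. The MST-312 region (155635178 to 155635948) had 35 fragments and a −log10 q of 16.5, close to the lowest listed value. The ratio was 0.541, with the wide interval of 0.35 to 0.822 that such low pileups give. The summit lay 93 bp downstream of the start in untreated cells and 147 bp upstream of it after MST-312. At 35 fragments, where a summit falls within a region of 771 bp is itself uncertain.

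The polymerase genes POLRMT and POLG had ratios with overlapping intervals, and no difference between them was tested. POLRMT encodes the single-subunit RNA polymerase of mitochondria, and its start lies on chromosome 19 at 633568. In untreated cells it had a pair of regions: one over the start (632290 to 633937) with 119 fragments and one just upstream (634041 to 634492) with 66 fragments. After MST-312 only a region over the start was listed (632543 to 633802), with 81 fragments, and it ended 239 bp short of the upstream one. The ratio over the start was 0.747 (0.556 to 0.999). The untreated summit lay 713 bp downstream of the start and the MST-312 summit 13 bp downstream, so these values are for positions 700 bp apart. Set against the untreated region whose summit was nearest to the start, the small upstream one, the ratio was 1.347. The direction at POLRMT thus depends on which untreated region is taken. The small upstream region shares no base with the MST-312 region, so 1.347 does not compare the same site.

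POLG, the catalytic subunit of the mitochondrial DNA polymerase, has its start on chromosome 15 at 89878026. Its untreated region (89877133 to 89878721) had 259 fragments and its MST-312 region (89877270 to 89878981) had 129, a ratio of 0.547 (0.439 to 0.678). The summits lay 244 and 252 bp upstream of the start, 8 bp apart, the smallest shift of the 8 genes. Local background was 9.64 and 9.66 fragments, and the fold enrichment was 24.4 and 12.2. POLG was the one gene whose region was wider after MST-312, 1712 against 1589 bp.

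C1QBP, a matrix protein needed for mitochondrial translation, had the narrowest untreated region over a start site and, after PPRC1, the highest pileup. Its start lies on chromosome 17 at 5342471. The untreated region (5341803 to 5342792) was 990 bp wide, with 470 fragments and a fold enrichment of 48.7, the highest of the 8. It ranked 76 of the list by fold enrichment and 104 by pileup. The MST-312 region (5342030 to 5342765) was 736 bp wide, with 292 fragments and a fold enrichment of 29.9. It ranked 116 by fold enrichment and 119 by pileup. The ratio was 0.682 (0.587 to 0.791), and the summits lay 173 and 124 bp downstream of the start.

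The listed regions were narrower after MST-312 at 7 of the 8 genes, against 75.4% of all pairs of single regions. Over the whole lists the median width was 678 bp in untreated cells and 566 bp after MST-312. Widths are not scaled for kept tags, and whether they follow from the lower depth and pileup of the MST-312 library was not tested. The difference was largest at NRF1 (2000 and 1416 bp) and TFB1M (1299 and 771 bp). The median width ratio was 0.785 over the 8 genes and 0.832 over all pairs. The 8 paired regions covered 12106 bp in untreated cells and 9926 bp after MST-312, and the upstream POLRMT region brought the untreated sum to 12558 bp. At 5 genes (TFB1M, POLRMT, NRF1, PPRC1 and C1QBP) the MST-312 region lay wholly inside the untreated one. At POLG the region reached 695 bp upstream of the start in untreated cells and 955 bp after MST-312. Summits lay within 100 bp of each other at 5 of 8 genes, against 74.7% of all pairs; the other 3 were TFAM (111 bp), TFB1M (240 bp) and POLRMT (700 bp).

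**Figure D3:**
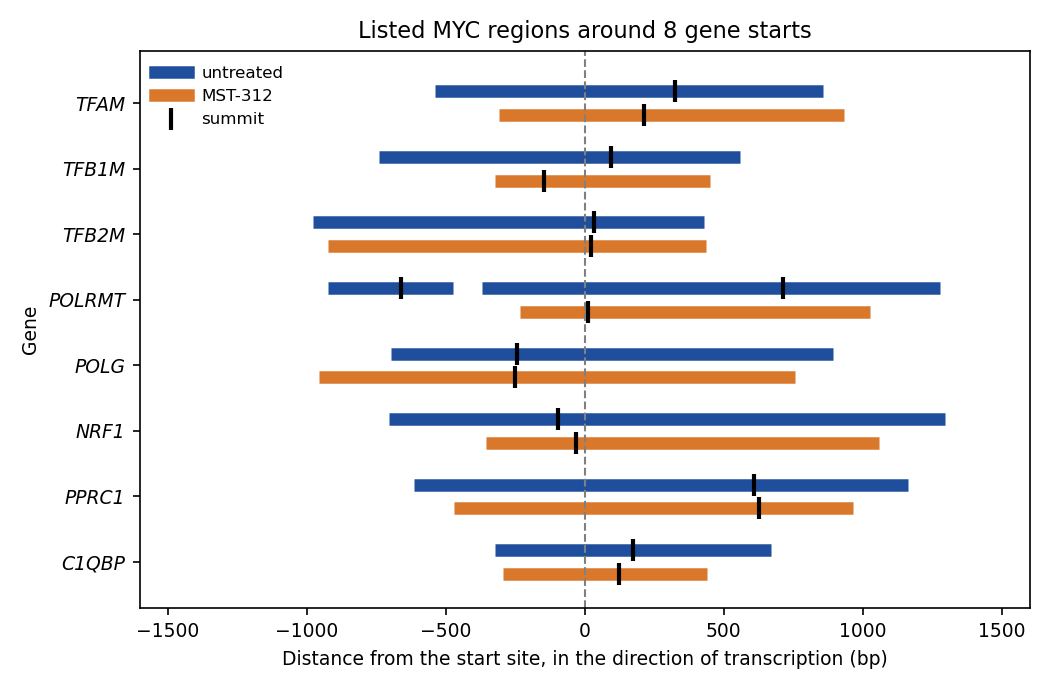
Extent of each listed MYC region with a summit within 5 kb of the start of 8 genes (x axis, distance from the start site in bp, negative values upstream), for the untreated and the MST-312 list; black ticks are summits. Every gene has a region of each list across the start, POLRMT has a second, upstream region in the untreated list only, and its summits lie 700 bp apart.

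Around the gene starts, the regions listed in 1 library only had at most 66 fragments, against an untreated list median of 62. The summits nearest outside the 5 kb limit were untreated regions 5522 bp upstream of TFB2M (45 fragments) and 6481 bp upstream of POLRMT (55 fragments), both without a partner, while the farthest inside was the POLRMT summit at 713 bp. Between 5 and 30 kb from the 8 starts, a distance chosen after the data had been seen, there were 13 untreated regions, of which 8 had a partner, and 10 MST-312 regions, of which 9 had one. Over all listed regions the shares with a partner were 53.6% and 63.3%, so regions without a partner were not more common here. The 5 untreated regions without a partner had pileups of 32 to 57 fragments. The only MST-312 region without a partner lay 12319 bp upstream of TFAM, with 29 fragments and a −log10 q of 13.7. No listed region other than that over the start lay within 30 kb of NRF1.

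PPRC1 stood in a cluster of strong MYC regions. A region 15071 bp upstream of its start had 301 fragments in untreated cells and 188 after MST-312, and one 12686 bp upstream had 180 and 82. A region 19743 bp downstream had 446 and 190 fragments. In RefSeq (GRCh38.p14) the next protein-coding gene downstream is NOLC1, which encodes a nucleolar phosphoprotein, and the next upstream is HPS6; LDB1 overlaps PPRC1. C1QBP had strong regions 19110 bp downstream (257 and 119 fragments) and 29791 bp upstream (396 and 154), in a stretch where RefSeq places DHX33 upstream, NUP88 downstream and RPAIN overlapping. A region 28827 bp upstream of POLRMT, 2891 bp wide with 198 fragments, met 2 MST-312 regions with 76 and 64 fragments. These flanking regions were not assigned to genes.

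**Figure D4:**
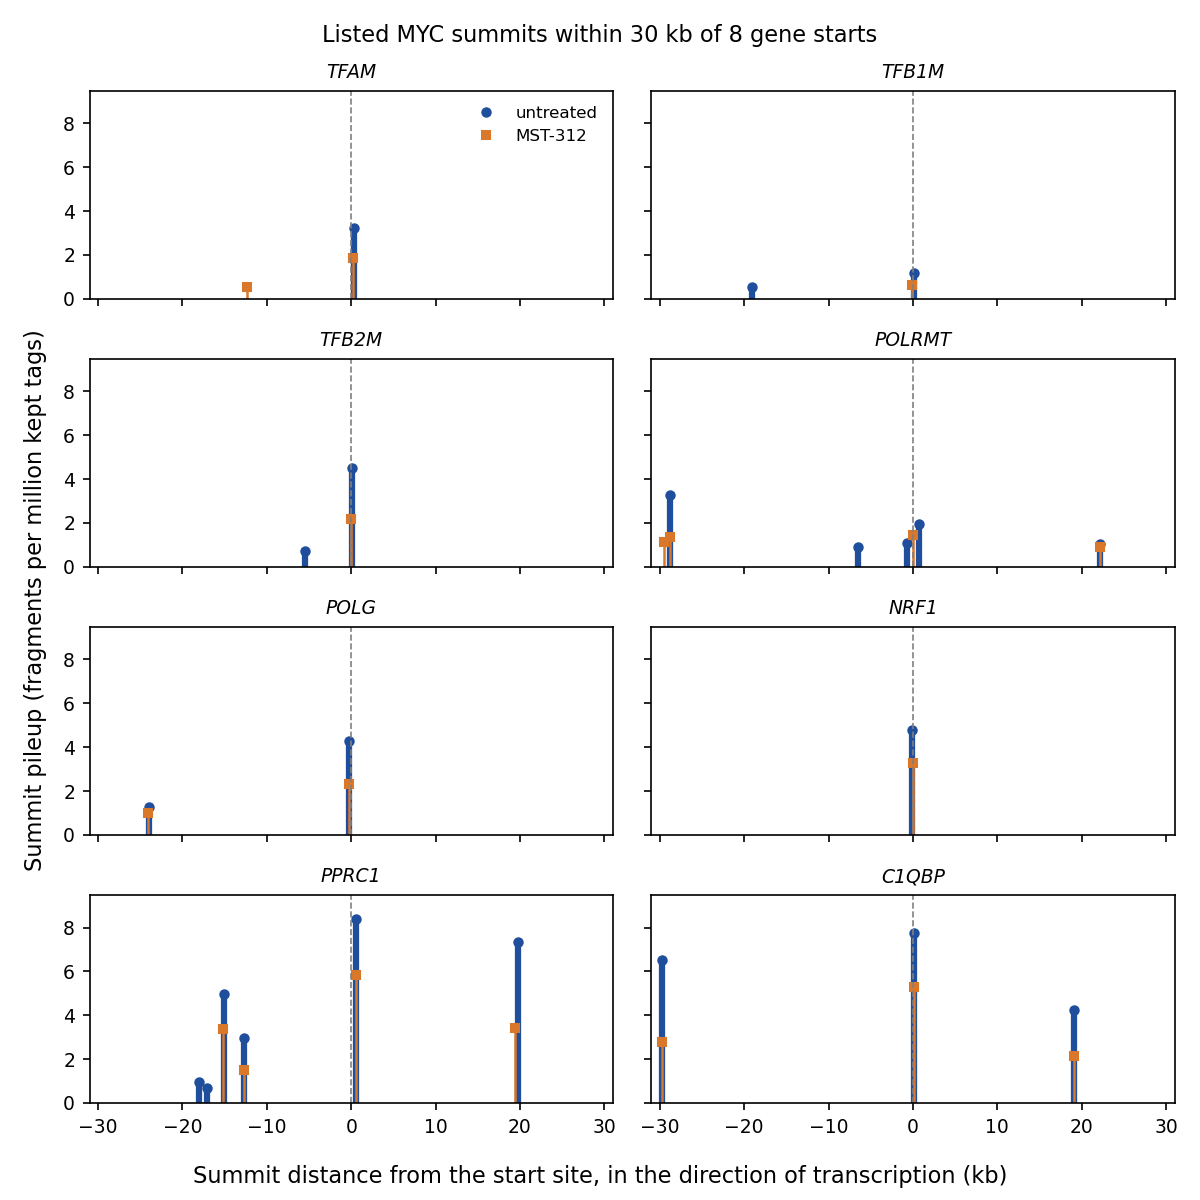
Summit pileup (y axis, fragments per 1000000 kept tags) of every listed MYC region with a summit within 30 kb of the start of 8 genes (x axis, kb, negative values upstream), with wide blue stems for the untreated and narrow orange stems for the MST-312 library. PPRC1 and C1QBP have further strong regions on both sides, such as that at 19743 bp downstream of PPRC1 with 446 and 190 fragments, while NRF1 has only the regions at its start.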

How the data were processed

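MYC ChIP-seq peak lists of 1 untreated and 1 MST-312 library of P493 cells were used; the input library entered only through the peak calls. Per the submitters' processing notes, CASAVA 1.8 and Bowtie2 2.2.3 were used with hg19. Per the file headers, MACS 2.0.10.20131216 called each library separately against the same input, with 200 bp fragments, no model, a p-value threshold of 0.05 and at most 3 duplicate tags per position. The deposited pileup is an unscaled signal in fragments, the deposited fold enrichment a ratio to local background, and the deposited −log10 q carries a column name without the minus sign. Local background was back-calculated as (pileup + 1) / fold enrichment − 1. These peak values, the authors' own, describe, rank or filter regions.

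Start sites came with the gene list. Per gene and list the region of highest pileup within 5 kb was paired. Partners share at least 1 bp. Pileup was divided by kept tags and given per 1000000, and ratio intervals come from the exact binomial share of fragments (scipy 1.17.1, pandas 2.3.3, Python 3.11.15). The overlap and ratio code was tested on simulated data. All 8 genes are named. The 5 kb rule uses gene positions only, but the genes, lists and alternatives were chosen with earlier results of these data known. Pairing by highest pileup does use a measured value, and it decides the direction at POLRMT. A wider list of mitochondrial genes was not placed, since no hg19 start sites for it were used here. Promoters are from RefSeq. No test between conditions was run, as planned.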

Additional observations from a re-analysis of the deposited data

How the results depend on the processing

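Each of the 8 genes kept a listed region in both lists with summit limits of 1 and 10 kb, with any base within 5 kb, and with at least 50% of each region shared. With −log10 q of at least 26, TFB1M was lost from the MST-312 list, leaving 7 genes there and 7 shared. With summits within 100 bp required, 5 genes were shared. The median pileup ratio of 0.631 was 0.575 with pileups as deposited and 0.563 with the pileups of all regions within 5 kb summed, 0.617 after subtracting local background and 0.651 from fold enrichments. Of 40 single-gene ratios under 5 alternatives, 14 could not change, since 7 genes have 1 region per list. Of the other 26, 25 lay below 1 and 23 within their counting interval. The exceptions were at POLRMT and NRF1. POLRMT was at 1.347 with the region of nearest summit, where the untreated and MST-312 regions share no base. POLRMT was at 0.481 with pileups summed, since its small upstream region is in the untreated list only. NRF1 was at 0.472 from fold enrichments. Among the 26, the ratios with pileups as deposited are the main ratios lowered by 1 common factor, so they could not exceed 1. Depth limits TFB1M most, with 71 and 35 fragments. The flank distance of 30 kb, the shares and ratios over pairs and regions in the strength range of the 8 genes and the 8-base motif were chosen after seeing the data. No paired analysis was possible because each condition is 1 library, and for the same reason none could be left out.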
